A study of Cyanidioschyzon merolae strain 10D with 12 samples.

Results

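Protein degradation genes of the red alga Cyanidioschyzon merolae, strain 10D, were followed through a drop in CO2 and a return to high CO2. The members are the nuclear genes whose annotation category in the deposited table begins with protein degradation, and they number 239 of the 4970 genes in that table. The 2 plastid-genome genes with the category, an FtsH and a ClpC homologue, were left out, and gene CMT172C does not carry the category. By subcategory, 108 members belong to ubiquitin conjugation and removal, 37 to the proteasome, 41 to protease families and 6 to AAA-type ATPases, while 47 carry only the top level of the category. No gene of the table has autophagy in its category or description, so an autophagy group could not be formed.

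All 4 groups hold wild-type cells, with 3 libraries each, described by the labels as independent biological replicates. Cultures started at an optical density of 0.7 at 750 nm and grew for 24 h at 30 °C, under 90 µmol photons per square metre and second, with 5% CO2 in air. HC 0 h was sampled then, LC 3 h and LC 24 h after 3 and 24 h at 0.04% CO2, and HC 24 h recovery after a further 24 h back at 5% CO2. No culture held at 5% CO2 to the later times is among the samples, so CO2 and time in culture cannot be told apart. A single strain was used, and each library reports the average of a whole culture, in which a change of all cells and a change of some cells cannot be told apart. Libraries held 9671514 to 28346661 counts, and the kit named in the labels does not mark strand, so sense and antisense reads of a gene cannot be told apart. Over all tested genes replicate 1 lay farthest from the other members of its group in every group, with a root mean square log2 difference of 0.34 to 0.56 from them, against 0.18 to 0.25 between replicates 2 and 3. Over the members alone the same held at LC 3 h, LC 24 h and recovery, while at HC 0 h replicate 2 stood apart, at 0.39 and 0.38 from the others, which differed by 0.21.

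Eukaryotic cells degrade most short-lived proteins by tagging them with ubiquitin. An E1 enzyme activates ubiquitin, an E2 carries it and an E3 ligase chooses the substrate, while deubiquitinases remove the tag. The 26S proteasome, made of a barrel-shaped 20S core with its proteolytic sites inside and a 19S cap whose ATPase ring unfolds substrates, digests the tagged proteins. Plastids and mitochondria instead use proteases of bacterial descent, among them Clp, FtsH, Lon and Deg. Gene names below are those of the best Arabidopsis match in the deposited table. They record similarity only, and 21 members were matched with an E-value above 1e-05.

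Levels are given as CPM, counts scaled to the size of the library after TMM normalisation and so a share of each library, and changes as log2 values ± standard error from edgeR's quasi-likelihood fit of all 12 libraries. A gene was called when its Benjamini-Hochberg adjusted p over the 4865 tested genes was under 0.05, and all 239 members passed the filter on low counts. At LC 3 h 69 members rose and 34 fell against HC 0 h, where 22.1% of all tested genes were called higher and 19.3% lower, 41.4% in all. The balance of directions at LC 3 h depended on the scaling: with upper-quartile scaling 52 members rose and 49 fell, beside 861 higher and 1321 lower of all tested genes, where TMM gave 1076 and 939. At LC 24 h 94 members rose and 68 fell, where 32.7% of all tested genes were called higher and 30.3% lower, 63.0% in all. The called share of the members, 43.1% at LC 3 h and 67.8% at LC 24 h, was thus near that of all genes. The direction differed between the member groups: at LC 24 h the median log2 change was 0.24 for the ubiquitin group and -0.42 for the proteasome group, beside 0.02 for all tested genes. The comparisons of LC 3 h, LC 24 h and recovery with HC 0 h share the HC 0 h libraries, so their values are set side by side only.

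**Figure D1:**
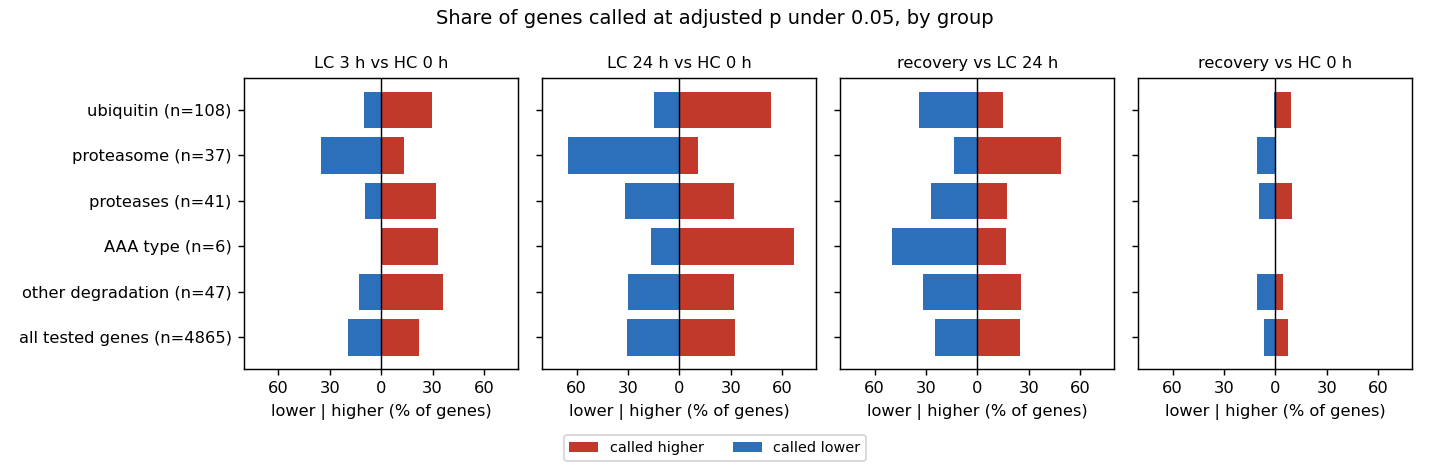
Bars give the percentage of genes in each group called higher (right, red) or lower (left, blue) by edgeR at adjusted p under 0.05 in 4 comparisons; n is the number of genes tested. The ubiquitin bar points mainly to higher and the proteasome bar mainly to lower at LC 24 h, and both point the other way when recovery is compared with LC 24 h.

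**Figure D2:**
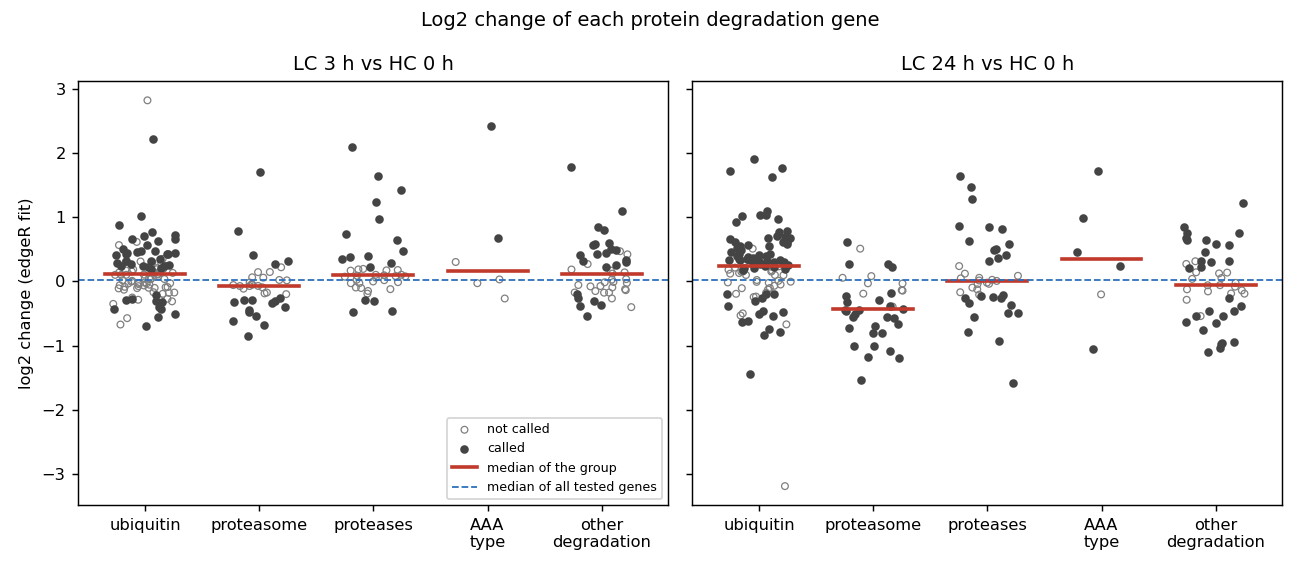
Each point is 1 member, with its log2 change from edgeR on the vertical axis; filled points were called, open points were not, red lines are group medians and the dashed line is the median of all 4865 tested genes. At LC 24 h the proteasome median lies at -0.42 and the ubiquitin median at 0.24.

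In the ubiquitin group 58 of 108 genes rose and 16 fell at LC 24 h, against 32 and 11 at LC 3 h. The called shares were 68.5% and 39.8%, beside 63.0% and 41.4% of all tested genes. With upper-quartile scaling the LC 3 h counts were 22 and 18, and the 11 falls became 17 without LC 3 h replicate 1. The summed level of the group was 19310 ± 131 CPM at HC 0 h (SD, n = 3), 21549 ± 1066 at LC 3 h, 23400 ± 140 at LC 24 h and 21309 ± 172 in recovery. All 3 libraries of LC 24 h lay above every other library in this sum. The same held in summed TPM, the deposited level scaled for gene length. In TPM, however, recovery overlapped HC 0 h. Recovery replicate 3 (19684.9 TPM) lay below the lowest HC 0 h library (19854.0).

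Among the 4 E1 genes, the gene matching UBA1, which activates ubiquitin itself, fell. CMI034C (UBA1) stood at 545, 485 and 529 CPM at HC 0 h, at 425, 433 and 430 at LC 3 h, at 408, 389 and 398 at LC 24 h, and at 529, 508 and 536 in recovery. Its low-CO2 libraries all lay below its high-CO2 libraries. The log2 change was -0.27 ± 0.07 at LC 3 h (edgeR adjusted p = 0.0089) and -0.38 ± 0.07 at LC 24 h (adjusted p = 0.00069). The other E1 genes match activators of ubiquitin-like proteins and not of ubiquitin: CMC124C (SAE1B) and CME143C (SAE2) correspond to the SUMO-activating pair, and CMM282C (ECR1) to the activator of the NEDD8-type modifier. Their log2 changes at LC 24 h were 0.24, 0.35 and 0.39, and each call was lost without HC 0 h replicate 1 or 2 or without LC 24 h replicate 3, at adjusted p from 0.0585 to 0.126. Without LC 24 h replicate 2, 1 of the 3 calls was left.

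Of the 16 E2 genes 8 rose and 2 fell at LC 24 h. The called share, 62.5%, was near the 63.0% of all tested genes. CMK253C (UBC1) stood at 43.5, 37.5 and 42.7 CPM at HC 0 h, at 62.7, 66.6 and 66.7 at LC 3 h, at 78.6, 83.9 and 88.6 at LC 24 h, and at 56.7, 63 and 69.4 in recovery. Its 3 HC 0 h libraries were its lowest and its 3 LC 24 h libraries its highest. Relative to HC 0 h the log2 change was 1.02 ± 0.09 at LC 24 h (edgeR adjusted p = 4.3e-06) and 0.61 ± 0.09 in recovery (adjusted p = 0.0034), both against HC 0 h. The E2 genes that fell were CMB015C (UBC11), with a log2 change of -0.78 ± 0.17 (adjusted p = 0.0019), and CMK193C, which matches the SUMO-conjugating enzyme SCE1, with -0.48.

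The E3 ligases, which make up most of the ubiquitin group, had 36 of 59 higher and 6 lower at LC 24 h. Their called share was 71.2%, beside 63.0% of all tested genes, where 32.7% were higher and 30.3% lower. Among the 36 genes of the RING class, named for the zinc-binding fold that holds the E2, 23 rose and 4 fell. The 4 falls became 2 when HC 0 h replicate 1 was left out, and likewise on leaving out replicate 2 or 3 of LC 24 h. Members of the SCF class assemble on a cullin scaffold with SKP1 and an F-box protein that binds the substrate. Of its 11 genes 8 rose and 0 fell, a called share of 72.7%. There were 0 falls also at an unadjusted p under 0.05 and in DESeq2.

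The RING-class gene with the largest change was CMM036C, whose Arabidopsis match is weak, with an E-value of 0.002. It stood at 74.2, 90.8 and 95.7 CPM at HC 0 h, at 270, 477 and 462 at LC 3 h, at 259, 295 and 306 at LC 24 h, and at 81.2, 96.3 and 99.8 in recovery. Every low-CO2 library lay above every high-CO2 library, and LC 3 h replicate 1 was well below the other LC 3 h libraries. This gave a log2 change of 2.21 ± 0.20 at LC 3 h (edgeR adjusted p = 9.7e-06) and 1.72 ± 0.20 at LC 24 h (adjusted p = 2.6e-05). On return the level fell by 1.63 on the log2 scale from LC 24 h (adjusted p = 7.4e-05). Other RING-class genes that rose at LC 24 h were CMG008C, with a log2 change of 1.04, CML188C, with 0.78, and CMT222C, with 0.62, the match to HUB1, a ligase that places single ubiquitins on histone H2B. CMT336C, annotated with armadillo repeats and a U-box on a weak match (E-value 0.027), fell at both times, with log2 changes of -0.50 ± 0.12 (adjusted p = 0.0055) and -0.63 ± 0.12 (adjusted p = 0.00078).

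In the SCF class CMF144C, matched to the F-box protein SKIP16, rose at both low-CO2 times. It stood at 287, 368 and 336 CPM at HC 0 h, at 501, 567 and 573 at LC 3 h, at 705, 739 and 680 at LC 24 h, and at 467, 546 and 589 in recovery. The HC 0 h libraries were the lowest and the LC 24 h libraries the highest, with LC 3 h and recovery overlapping between them. The log2 change from HC 0 h was 0.73 ± 0.12 at LC 3 h, 1.10 ± 0.12 at LC 24 h and 0.69 ± 0.12 in recovery (edgeR adjusted p = 0.00052, 1.5e-05 and 0.0055). CMT046C, matched to the scaffold cullin CUL1, rose by 0.34 at LC 24 h.

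Another F-box gene, CMH283C, moved in opposite directions at the 2 low-CO2 times. Its values were 459, 452 and 461 CPM at HC 0 h, 301, 312 and 319 at LC 3 h, 681, 811 and 845 at LC 24 h, and 424, 534 and 544 in recovery. LC 3 h lay wholly below HC 0 h and LC 24 h wholly above it. The fitted log2 change was -0.56 ± 0.11 at LC 3 h (edgeR adjusted p = 0.0021), 0.77 ± 0.11 at LC 24 h (adjusted p = 0.00013) and 1.33 ± 0.11 between the 2 times (adjusted p = 1.2e-05). Its annotation as an F-box protein rests on an E-value of 0.0007.

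Ubiquitin itself is made as fusions that are cut apart, and genes encoding it share near-identical stretches, so the split of counts between them is uncertain. Per length, the highest level of all members at HC 0 h was that of CMK296C, a ubiquitin extension gene (UBQ1), at 3941 ± 298 TPM, the deposited level scaled for gene length (SD, n = 3). It was followed by CMC045C, also matched to UBQ1, at 1139 ± 51.7 TPM, and by CMD152C, an E2 matched to UBC11, at 1125 ± 111 TPM. The median member stood at 127 TPM. CMK296C held 1239, 1358 and 1147 CPM at HC 0 h, 2187, 1926 and 1993 at LC 3 h, 1243, 989 and 947 at LC 24 h, and 1701, 1179 and 1054 in recovery. The LC 3 h libraries lay above all others, with a log2 change of 0.71 ± 0.18 (edgeR adjusted p = 0.0086), against -0.24 ± 0.18 at LC 24 h (adjusted p = 0.27). CMC045C did not pass the test at LC 3 h, at 0.14 ± 0.09 (adjusted p = 0.24), and fell by 0.53 at LC 24 h (adjusted p = 0.00045).

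Another gene of the ubiquitin group that rose was CMM224C, annotated both as a phosphatidylinositol 3- and 4-kinase and as a ubiquitin family protein. It stood at 798, 861 and 815 CPM at HC 0 h, at 1225, 1905 and 1904 at LC 3 h, at 2291, 2661 and 2657 at LC 24 h, and at 1135, 1444 and 1482 in recovery. LC 24 h lay above all other libraries and HC 0 h below all others. The log2 change was 1.02 ± 0.18 at LC 3 h (edgeR adjusted p = 0.00086) and 1.62 ± 0.18 at LC 24 h (adjusted p = 2.1e-05). CMS291C, a ubiquitin family protein, fell, from 525, 527 and 552 CPM at HC 0 h to 336, 322 and 334 at LC 3 h and 269, 319 and 314 at LC 24 h, and stood at 446, 523 and 551 in recovery. The low-CO2 libraries did not overlap the high-CO2 ones, with log2 changes of -0.70 ± 0.10 (adjusted p = 0.00019) and -0.83 ± 0.10 (adjusted p = 2.6e-05).

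Of the 10 genes in the deubiquitinase bin 4 rose and 2 fell at LC 24 h. The called share of the bin was thus just below the 63.0% of all tested genes. The 4 rises were small, with log2 changes of 0.22, 0.22, 0.24 and 0.18 for CMB102C, CMH182C, CMR384C and CMT224C. Without LC 24 h replicate 3 none of the 4 passed, at adjusted p from 0.0524 to 0.105, and without LC 24 h replicate 1 or 2 none passed either, at adjusted p from 0.0506 to 0.13. Leaving out HC 0 h replicate 1, 2 or 3 left 2, 1 and 1 of them, and relative-log-expression scaling left 1. Of the falls, that of CMR057C (UBP2), at -0.19, was lost on leaving out any 1 library of either group, at adjusted p from 0.0755 to 0.112. CMT098C, matched to UBP14, which takes apart free ubiquitin chains, fell by 0.43 at LC 3 h and 0.62 at LC 24 h on the log2 scale. CMR314C, matched to UBP17 but filed under the top level of the ubiquitin bin, had a log2 change of -0.29 ± 0.11 at LC 3 h (edgeR adjusted p = 0.059) and fell by 0.74 at LC 24 h (adjusted p = 0.00018). CMG042C, matched to UBP4, was near the detection limit in most libraries. Its values were 0, 3.6 and 0 CPM at HC 0 h, 3.07, 6.31 and 16.9 at LC 3 h, 0, 0.496 and 0 at LC 24 h, and 3.42, 0 and 0.0354 in recovery. From LC 3 h to LC 24 h edgeR called it lower, with a log2 change of -6.01. The call was lost in DESeq2 (adjusted p = 0.0947). It was also lost without LC 3 h replicate 3 or LC 24 h replicate 1 or 3, at edgeR adjusted p from 0.071 to 0.0851.

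The peroxisome offered a set of members with a shared role, picked here after their values were seen. Peroxisomes import folded proteins with a receptor that is ubiquitinated by the E2 PEX4 and the RING ligases PEX2 and PEX10 and pulled out of the membrane by the AAA ATPase PEX6. CML252C (PEX6) stood at 41.6, 38.5 and 56.6 CPM at HC 0 h, at 103, 335 and 294 at LC 3 h, at 151, 143 and 158 at LC 24 h, and at 42.9, 53.2 and 53.3 in recovery. All low-CO2 libraries lay above all high-CO2 libraries, and LC 3 h replicate 1 was far below the other LC 3 h libraries. Relative to HC 0 h the log2 change was 2.42 ± 0.35 at LC 3 h, the largest called rise of any member at that time (edgeR adjusted p = 0.00033), and 1.73 ± 0.35 at LC 24 h (adjusted p = 0.0014).

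CMD105C (PEX2) rose to 111, 124 and 118 CPM at LC 24 h from 56.7, 64.4 and 58.8 at HC 0 h, a log2 change of 0.97 ± 0.07 (edgeR adjusted p = 8.6e-07). CMT012C (PEX10) rose by 0.31 ± 0.08 at LC 24 h (adjusted p = 0.006). The deposited table matches a pair of genes to PEX4. CMG003C stood at 98.8, 39 and 143 CPM at HC 0 h, at 31.5, 101 and 87.7 at LC 3 h, at 369, 269 and 321 at LC 24 h, and at 180, 336 and 285 in recovery. LC 24 h lay wholly above HC 0 h and overlapped recovery. The log2 change at LC 24 h was 1.77 ± 0.48 (adjusted p = 0.0082), and without replicate 1 of all groups it was 1.70 (adjusted p = 0.057). The other PEX4 match, CME199C, ranged from 37.7 to 51.5 CPM over all 12 libraries, and its log2 change at LC 24 h was -0.18 ± 0.08 (adjusted p = 0.084).

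The proteasome genes went the other way from most of the ubiquitin genes. At LC 24 h 24 of 37 fell and 4 rose, and at LC 3 h 13 fell and 5 rose. The called shares were 75.7% and 48.6%, beside 63.0% and 41.4% of all tested genes. The LC 24 h counts moved by less than 1.5 times in every alternative tried. The 13 falls at LC 3 h became 7, 6 and 8 without HC 0 h replicates 1, 2 and 3, and 6 without LC 3 h replicate 2 or 3. The summed level was 6107 ± 77.8 CPM at HC 0 h (SD, n = 3), 5928 ± 317 at LC 3 h, 4632 ± 175 at LC 24 h and 5407 ± 384 in recovery. All LC 24 h libraries lay below all others in this sum, and recovery lay below HC 0 h. In summed TPM the LC 24 h mean was again the lowest, at 5659.6, but its libraries overlapped others. LC 24 h replicate 1 (6024.7 TPM) lay above LC 3 h replicate 3 (5907.7) and above recovery replicates 2 and 3 (5707.9 and 5572.4).

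**Figure D3:**
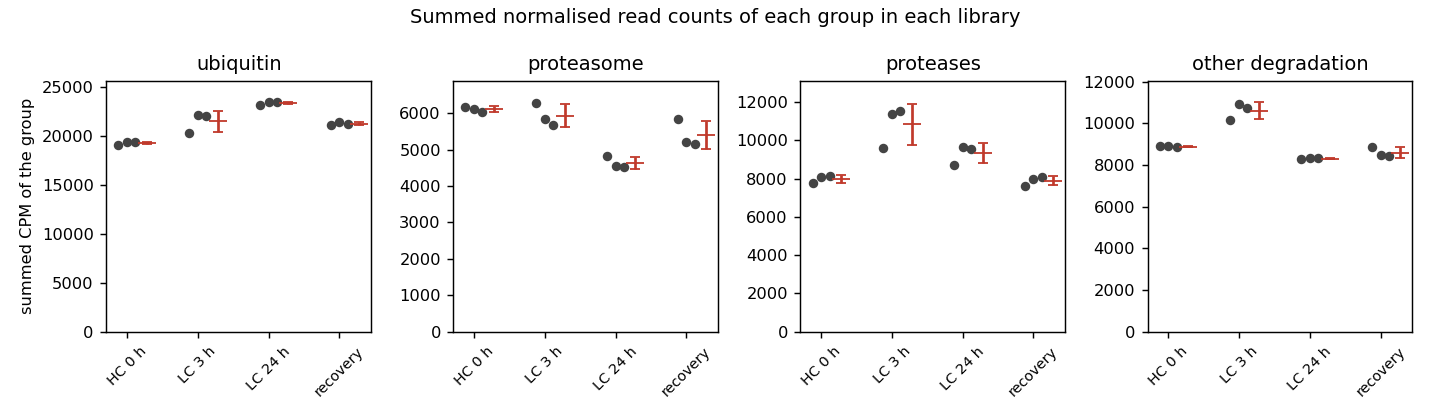
Points give the summed CPM of each group in each of the 3 libraries per time point, and red marks give the mean and SD. The ubiquitin sum is highest at LC 24 h (23400 CPM) and the proteasome sum lowest there (4632 CPM). The mean protease sum is highest at LC 3 h (10836 CPM), but LC 3 h replicate 1 (9588.1 CPM) lies below LC 24 h replicate 2 (9668.5 CPM).

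In the 20S core all 13 genes had a log2 change below 0 at LC 24 h, with a median of -0.57. Of these 11 fell, and 0 rose, with 0 rises also at an unadjusted p under 0.05 and in DESeq2. The genes CMH119C (PBD2) and CMK289C (PBB1) did not pass the test, each at -0.03. The core is built from rings of alpha subunits around rings of beta subunits, and both kinds fell.

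Among alpha subunits, CMQ225C (PAE1) stood at 147, 155 and 132 CPM at HC 0 h, at 172, 103 and 104 at LC 3 h, at 76.6, 60 and 54.6 at LC 24 h, and at 149, 101 and 101 in recovery. Only LC 24 h lay apart from the rest, with a log2 change of -1.18 ± 0.22 from HC 0 h (edgeR adjusted p = 0.0009). CMO197C (PAG1) stood at 140, 128 and 136 CPM at HC 0 h, at 136, 131 and 122 at LC 3 h, at 73, 55.9 and 61.9 at LC 24 h, and at 120, 101 and 93.7 in recovery. It too was low at LC 24 h without overlap, at -1.08 ± 0.11 (adjusted p = 1.2e-05), while LC 3 h overlapped HC 0 h.

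The beta subunit CMG188C (PBC2) was already low at LC 3 h. It stood at 94.5, 93.8 and 96.2 CPM at HC 0 h, at 62.7, 48.2 and 47.6 at LC 3 h, at 49.6, 47.1 and 44.5 at LC 24 h, and at 95.6, 85.8 and 77 in recovery. The low-CO2 libraries did not overlap the high-CO2 ones. This gave a log2 change of -0.84 ± 0.11 at LC 3 h (edgeR adjusted p = 0.00015) and -1.01 ± 0.11 at LC 24 h (adjusted p = 2e-05), and the level rose by 0.87 ± 0.11 from LC 24 h to recovery (adjusted p = 0.00011). A further 20S gene, CML273C (PAB1), carries only the top level of the category and is counted there.

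Of the 19 genes of the 19S cap, 11 fell and 2 rose at LC 24 h. This called share of 68.4% stood beside 63.0% of all tested genes, where 30.3% were lower. The lid subunit CMS045C (RPN6), which braces the cap against the core, had the largest fall. It stood at 140, 136 and 136 CPM at HC 0 h, at 114, 79.3 and 76.3 at LC 3 h, at 61.7, 39.4 and 40.2 at LC 24 h, and at 108, 79.6 and 74.7 in recovery. LC 24 h lay below all other libraries and HC 0 h above all others. The log2 change at LC 24 h was -1.54 ± 0.21 (edgeR adjusted p = 9e-05). At LC 3 h it was -0.61 ± 0.21 (adjusted p = 0.033), a call lost without any 1 of the HC 0 h libraries or LC 3 h replicate 2 or 3, at adjusted p from 0.0703 to 0.132.

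The lid subunit CMG170C (RPN7) followed, at 231, 236 and 219 CPM at HC 0 h, 190, 121 and 117 at LC 3 h, 124, 95.7 and 82.2 at LC 24 h, and 224, 149 and 128 in recovery. LC 24 h lay wholly below HC 0 h and recovery. The log2 change at LC 24 h was -1.19 ± 0.24 (edgeR adjusted p = 0.0014). The 19S genes CMQ283C and CMG093C (RPN5A) fell at LC 24 h as well, by 0.72 and 0.69 on the log2 scale.

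A pair of genes of the 19S ATPase ring stood against this trend at LC 24 h. At LC 3 h 3 of the 8 ATPase genes were called higher and 2 lower, and in the 20S core 1 was higher and 5 lower. In the whole proteasome group 2 genes were called higher at LC 3 h and lower at LC 24 h. CMF078C (RPT3) stood at 216, 231 and 224 CPM at HC 0 h, at 375, 411 and 367 at LC 3 h, at 281, 267 and 265 at LC 24 h, and at 248, 232 and 217 in recovery. Its low-CO2 libraries were all above its high-CO2 libraries, with log2 changes of 0.78 ± 0.07 (edgeR adjusted p = 1.1e-05) and 0.28 ± 0.07 (adjusted p = 0.0058). CMP294C (RPT5A) rose by 0.41 ± 0.08 at LC 3 h (adjusted p = 0.0025). At LC 24 h its log2 change was 0.22 ± 0.08 (adjusted p = 0.037), and the call was lost without any 1 of the HC 0 h libraries or LC 24 h replicate 2 or 3, at adjusted p from 0.0548 to 0.129, which leaves 1 of the 2 rises in the cap.

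The strongest rise in the proteasome group was in a factor that builds the core and is not part of the finished particle. CMI087C belongs to the UMP1 family, which in yeast helps the 20S core to assemble and is then digested by it. It stood at 50.4, 48.4 and 50.9 CPM at HC 0 h, at 146, 172 and 171 at LC 3 h, at 71.4, 83.2 and 75.2 at LC 24 h, and at 61.3, 55.2 and 47.8 in recovery. LC 3 h was highest without overlap, LC 24 h came next, and recovery overlapped HC 0 h. The fitted log2 change was 1.71 ± 0.10 at LC 3 h (edgeR adjusted p = 6.9e-07) and 0.62 ± 0.10 at LC 24 h (adjusted p = 0.00036). The proteasome subcategory also holds genes known for other roles, such as CMP265C, matched to the translation initiation factor EIF2, which fell by 0.80 at LC 24 h.

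**Figure D4:**
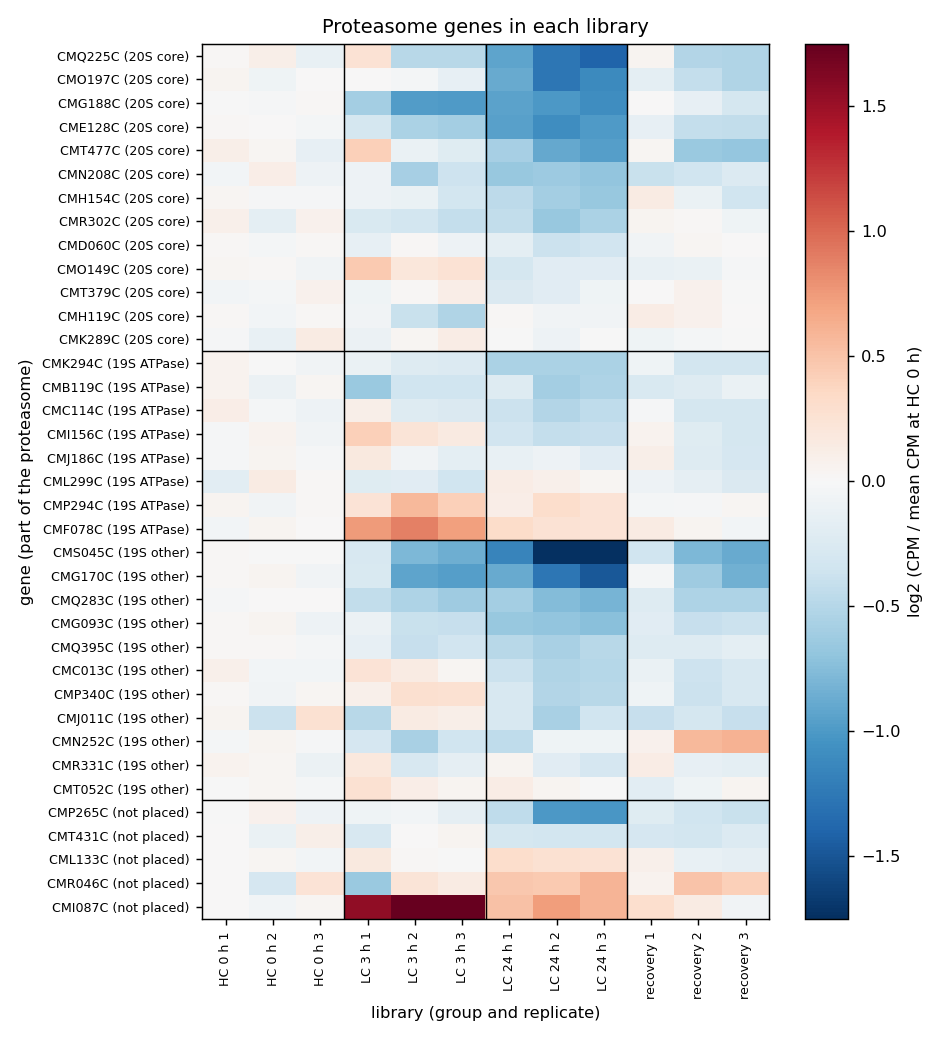
Each row is 1 of the 37 proteasome genes and each column 1 library; colour gives log2 of CPM over the gene's mean CPM at HC 0 h; values beyond the scale take its end colour. The 20S core genes are blue to pale at LC 24 h in all 3 libraries, while CMI087C (UMP1), CMF078C (RPT3) and CMP294C (RPT5A) are red at LC 3 h.

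Of the 41 protease genes 13 rose and 4 fell at LC 3 h, and 13 rose and 13 fell at LC 24 h. The called share at LC 24 h, 63.4%, was near the 63.0% of all tested genes, which also divided almost evenly between higher and lower. With upper-quartile scaling 11 rose and 7 fell at LC 3 h, and the 4 falls became 2 without HC 0 h replicate 3. The summed level was 7990 ± 202 CPM at HC 0 h (SD, n = 3), 10836 ± 1082 at LC 3 h, 9317 ± 522 at LC 24 h and 7903 ± 250 in recovery. In summed TPM the means were 7133.1, 8097.8, 7973.1 and 6485.6 in that order. LC 3 h replicate 1 (7474.0 TPM) lay below the lowest LC 24 h library (7672.3). By catalytic type, 3 of 17 serine proteases rose and 8 fell at LC 24 h, 6 of 13 metalloproteases rose and 3 fell, 4 of 8 cysteine proteases rose and 0 fell, and 2 of 3 aspartate proteases fell. The replicate block gave 1 cysteine protease fall, and 0 fell at an unadjusted p under 0.05 or in DESeq2. The 2 aspartate protease falls became 1 without HC 0 h replicate 2 or 3 or LC 24 h replicate 1 or 2.

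Among the serine proteases, CML090C is matched to DEGP1, which in Arabidopsis works in the thylakoid lumen. It stood at 138, 162 and 144 CPM at HC 0 h, at 483, 706 and 701 at LC 3 h, at 372, 451 and 413 at LC 24 h, and at 144, 151 and 157 in recovery. Low-CO2 and high-CO2 libraries did not overlap. The level was 4.26-fold higher at LC 3 h and 2.78-fold higher at LC 24 h, with log2 changes of 2.09 ± 0.14 (edgeR adjusted p = 1.3e-06) and 1.48 ± 0.14 (adjusted p = 7.1e-06), and fell by 1.45 from LC 24 h to recovery (adjusted p = 2e-05).

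The table matches another pair of genes to DEGP1. CML185C had a log2 change of 0.19 at LC 3 h that was not called and fell by 0.33 at LC 24 h, and CMT075C passed in neither comparison, with 0.03 and -0.12. CMM292C, matched to DegP9, fell at both times. It stood at 125, 154 and 151 CPM at HC 0 h, at 92.5, 110 and 109 at LC 3 h, at 68.4, 80 and 77.7 at LC 24 h, and at 104, 90.7 and 93 in recovery. HC 0 h was above all other libraries and LC 24 h below all others, with log2 changes of -0.46 ± 0.10 (edgeR adjusted p = 0.0046) and -0.93 ± 0.11 (adjusted p = 2.5e-05).

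Clp proteases consist of ATPase rings that unfold the substrate, such as ClpX, and a proteolytic chamber of ClpP and the related ClpR subunits. CMT045C, matched to CLPX, stood at 204, 260 and 241 CPM at HC 0 h, at 558, 811 and 831 at LC 3 h, at 684, 778 and 732 at LC 24 h, and at 318, 347 and 379 in recovery. All low-CO2 libraries lay above all others, and recovery lay between them and HC 0 h. The log2 change was 1.64 ± 0.15 at both times (edgeR adjusted p = 1.3e-05 and 7e-06). In recovery it was 0.57 ± 0.15 above HC 0 h (adjusted p = 0.031), a call lost without any 1 of the HC 0 h libraries or recovery replicate 2 or 3, at adjusted p from 0.0529 to 0.117.

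CMN237C, matched to the proteolytic subunit CLPP5, fell late. It stood at 507, 535 and 522 CPM at HC 0 h, at 465, 437 and 469 at LC 3 h, at 150, 189 and 186 at LC 24 h, and at 346, 332 and 354 in recovery. The 4 groups did not overlap, and LC 24 h was lowest. Relative to HC 0 h the log2 change was -0.19 ± 0.09 at LC 3 h (edgeR adjusted p = 0.11) and -1.58 ± 0.09 at LC 24 h (adjusted p = 3.7e-07), the largest called fall among the proteases. In recovery it was still lower than at HC 0 h, at -0.60 ± 0.09 (adjusted p = 0.0036).

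The other Clp members moved less. The CLPR2 matches CML155C and CMJ141C had log2 changes of -0.49 and -0.23 at LC 24 h, and that of CMJ141C lost its call without HC 0 h replicate 2 or 3 or LC 24 h replicate 1, at adjusted p from 0.0543 to 0.076. CMQ045C, matched to CLPP2, rose by 0.65 at LC 3 h. CMS440C was called lower at LC 3 h and higher from LC 3 h to LC 24 h. The LC 3 h call was lost without HC 0 h replicate 3 (log2 change -0.23, adjusted p = 0.0976). It was also lost without LC 3 h replicate 2 (-0.25, adjusted p = 0.0806), as was the later call (0.24, adjusted p = 0.0634). At LC 24 h the change of CMS440C from HC 0 h, 0.03, was not called. CMT122C, a second ATPase of the serine protease bin, rose at both times, by 0.47 and 0.87.

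FtsH proteases are membrane-bound metalloproteases of thylakoids and mitochondria. CMQ295C, matched to FTSH5 (VAR1), which in Arabidopsis takes part in turnover of photosystem II, stood at 780, 869 and 860 CPM at HC 0 h, at 1138, 1534 and 1496 at LC 3 h, at 1138, 1397 and 1349 at LC 24 h, and at 870, 1017 and 1081 in recovery. Its low-CO2 libraries all lay above its high-CO2 libraries, with log2 changes of 0.73 ± 0.14 (edgeR adjusted p = 0.0018) and 0.63 ± 0.14 (adjusted p = 0.0026). CMI157C, matched to the mitochondrial FTSH4, rose at LC 24 h by 0.81 ± 0.07 (adjusted p = 2.6e-06). The table matches both CMF159C and CME055C to the mitochondrial FTSH10, and at LC 24 h CMF159C rose by 0.50, while CME055C had a change of -0.21. The call of CME055C was lost without HC 0 h replicate 1 or 3 and without LC 24 h replicate 1 or 2, at adjusted p from 0.0993 to 0.134.

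Among peptidases that finish new or imported proteins, CMQ222C is matched to PREP1, the protease that digests cleaved targeting peptides in mitochondria and plastids. It stood at 450, 468 and 447 CPM at HC 0 h, at 848, 1161 and 1200 at LC 3 h, at 616, 719 and 704 at LC 24 h, and at 404, 421 and 431 in recovery. LC 3 h was highest and LC 24 h next, both without overlap with HC 0 h, and the log2 changes were 1.23 ± 0.13 (edgeR adjusted p = 2.4e-05) and 0.58 ± 0.12 (adjusted p = 0.0021).

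CMP247C, matched to MAP2B, a methionine aminopeptidase that removes the first methionine of new proteins, stood at 153, 179 and 163 CPM at HC 0 h, at 382, 481 and 462 at LC 3 h, at 356, 431 and 422 at LC 24 h, and at 191, 202 and 197 in recovery. Low-CO2 libraries lay above all others, with log2 changes of 1.42 ± 0.11 (edgeR adjusted p = 2.7e-06) and 1.29 ± 0.11 (adjusted p = 2.8e-06). The related MAP1A matches moved less: CMT169C rose by 0.50 at LC 24 h and CMT395C rose by 0.36 at LC 3 h. CMQ097C, matched to the mitochondrial protease LON1, fell by 0.50 at LC 24 h (adjusted p = 0.00076).

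**Figure D5:**
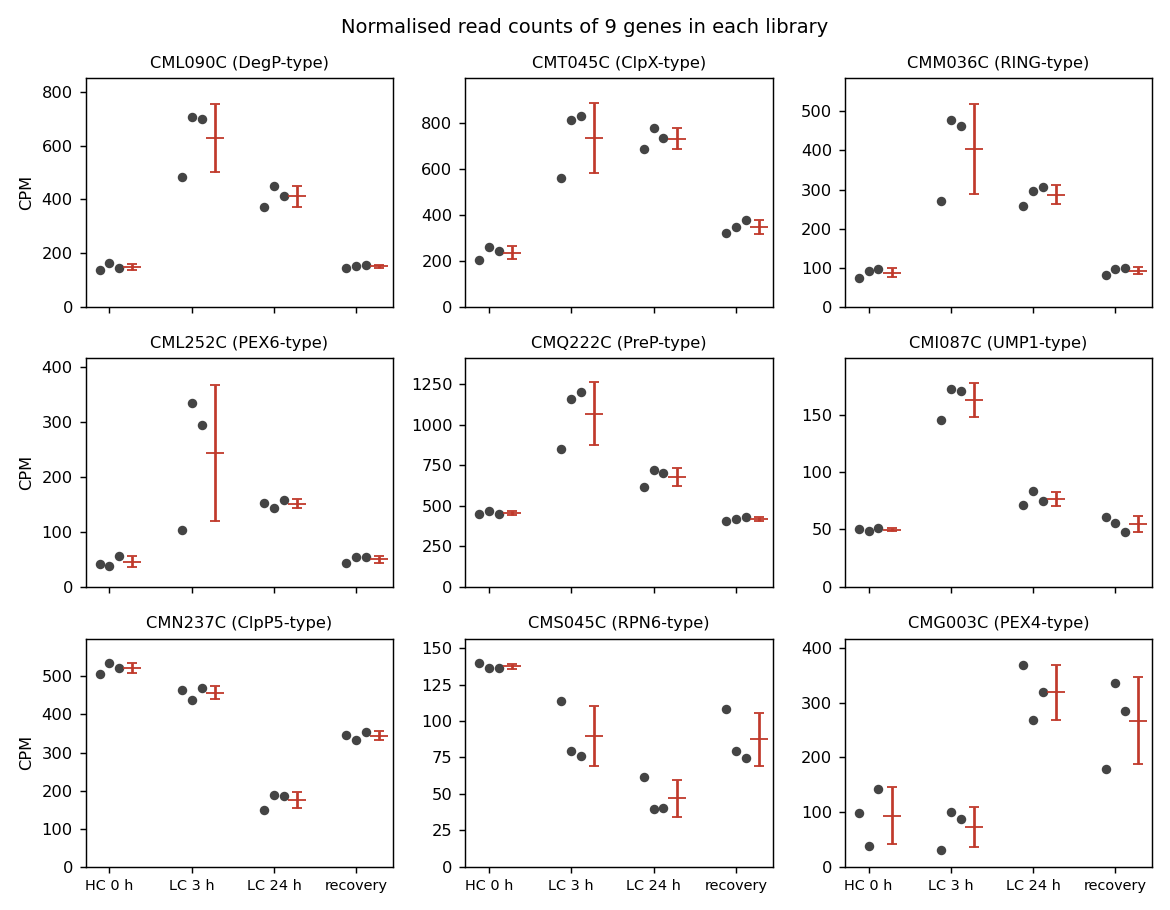
Black points are CPM in each of the 3 libraries per time point and red marks the mean and SD, for 9 genes labelled by their annotated match; each vertical axis starts at 0. Rises at low CO2 and near-start levels in recovery are seen for CML090C and CMM036C, a late fall for CMN237C, and for CMG003C high values at LC 24 h that overlap those of recovery.

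Among the 47 genes with only the top level of the category, 17 rose and 6 fell at LC 3 h, and 15 rose and 14 fell at LC 24 h. The called shares were 48.9% and 61.7%, beside 41.4% and 63.0% of all tested genes. At LC 24 h both the share and the near-even split were thus close to those of all genes. With upper-quartile scaling 13 rose and 10 fell at LC 3 h, and the 6 falls became 3 without HC 0 h replicate 2 or 3. CMD100C, which carries the domain of the Lon protease, stood at 115, 124 and 138 CPM at HC 0 h, at 311, 498 and 489 at LC 3 h, at 166, 198 and 200 at LC 24 h, and at 96.3, 103 and 105 in recovery. LC 3 h was highest and recovery lowest, and no groups overlapped. This gave a log2 change of 1.78 ± 0.16 at LC 3 h (edgeR adjusted p = 1.1e-05) and 0.58 ± 0.16 at LC 24 h (adjusted p = 0.0081).

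Members of this group with the same kind of activity changed in different directions. CMS341C, matched to aminopeptidase APM1, stood at 358, 343 and 326 CPM at HC 0 h, 548, 667 and 642 at LC 3 h, 506, 560 and 569 at LC 24 h, and 341, 321 and 340 in recovery, and its low-CO2 libraries lay above all others. It rose by 0.85 ± 0.09 at LC 3 h (edgeR adjusted p = 3.1e-05) and 0.67 ± 0.09 at LC 24 h (adjusted p = 8.3e-05). The cytosol aminopeptidase CMI185C stood at 335, 330 and 320 CPM at HC 0 h, 434, 465 and 499 at LC 3 h, 144, 179 and 179 at LC 24 h, and 250, 244 and 252 in recovery. Its 4 groups did not overlap, with a rise of 0.50 ± 0.09 at LC 3 h (adjusted p = 0.001) and a fall of 0.97 at LC 24 h (adjusted p = 5.7e-06).

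Derlins are membrane proteins of the endoplasmic reticulum that help to move misfolded proteins out for degradation, and the table matches a gene each to DER1 and DER2.2. CMK163C (DER2.2) stood at 111, 126 and 120 CPM at HC 0 h, at 196, 220 and 208 at LC 3 h, at 211, 218 and 214 at LC 24 h, and at 185, 190 and 177 in recovery. HC 0 h lay below all other libraries, with log2 changes of 0.81 ± 0.07, 0.85 ± 0.07 and 0.63 ± 0.07 in that order (edgeR adjusted p = 5.5e-06, 2.1e-06 and 0.0012). CMI159C (DER1) had a change of -0.07 ± 0.13 at LC 3 h (adjusted p = 0.7) and fell by 0.64 at LC 24 h (adjusted p = 0.0011). CMC123C, matched to RPA1A, a protein that binds single-stranded DNA, carries the category as well, and it fell by 1.11 at LC 24 h (adjusted p = 0.0013).

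Further metallopeptidases changed at 1 time or at both. CMQ013C, matched to EGY1, a membrane-embedded metalloprotease of the Arabidopsis chloroplast, stood at 287, 291 and 295 CPM at HC 0 h, at 224, 222 and 232 at LC 3 h, at 186, 218 and 228 at LC 24 h, and at 263, 263 and 262 in recovery. Its low-CO2 libraries were all below its high-CO2 libraries, with log2 changes of -0.36 ± 0.07 (edgeR adjusted p = 0.0021) and -0.47 ± 0.07 (adjusted p = 0.00022). CMH236C, of the peptidase M48 family, fell by 0.53 at LC 3 h and by 0.75 at LC 24 h (adjusted p = 0.00011 and 4.6e-06).

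The metalloendopeptidase CMS132C rose late. It stood at 90.7, 89.2 and 96.8 CPM at HC 0 h, at 94.9, 89.6 and 89.7 at LC 3 h, at 163, 152 and 153 at LC 24 h, and at 98.3, 89 and 93.6 in recovery. LC 24 h lay above all other groups, which overlapped each other, and its log2 change from HC 0 h was 0.76 ± 0.06 (edgeR adjusted p = 2.5e-06). CMO219C, an M16 family peptidase of the metalloprotease bin, fell by 0.48 at LC 3 h (adjusted p = 8.1e-05), with a change of -0.10 ± 0.06 at LC 24 h (adjusted p = 0.17). In the cysteine proteases, CMT077C, of the OTU-like family that includes deubiquitinases, rose by 0.85 ± 0.16 at LC 24 h (adjusted p = 0.00072), against 0.10 ± 0.16 at LC 3 h (adjusted p = 0.64).

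Of the 6 AAA-type genes 4 rose and 1 fell at LC 24 h, and 2 fell with the replicate block or without replicate 1 of all groups. The called share was 83.3%, beside 63.0% of all tested genes. Besides PEX6, the CDC48B match CMK293C, an unfoldase that extracts ubiquitinated proteins, rose by 0.46 ± 0.12 (edgeR adjusted p = 0.0051). CML131C rose by 0.68 ± 0.09 at LC 3 h (adjusted p = 0.00015) and 0.99 ± 0.09 at LC 24 h (adjusted p = 5.1e-06), while CMQ183C fell by 1.06 at LC 24 h (adjusted p = 0.0078).

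Between the 2 low-CO2 times 58 members rose and 79 fell from LC 3 h to LC 24 h, where 23.7% of all tested genes were called higher and 29.5% lower, 53.2% in all. The balance turned over with upper-quartile scaling, to 74 members higher and 56 lower, beside 1422 higher and 1184 lower of all tested genes, where TMM gave 1152 and 1435. The ubiquitin group had 36 rises and 19 falls, or 50 and 12 with that scaling, and the proteasome 4 rises and 21 falls. The 19 falls of the ubiquitin group became 11 without LC 24 h replicate 2 or 3. The 4 rises of the proteasome became 0 to 2 when LC 3 h replicate 2 or 3 or any 1 LC 24 h library was left out. The largest rise was that of CMG003C (PEX4), at 2.12 ± 0.49 (edgeR adjusted p = 0.0045), which was 1.64 without replicate 1 of all groups (adjusted p = 0.073). The largest called fall, with a log2 change of -6.01, was that of CMG042C, near the detection limit and not called in DESeq2 (adjusted p = 0.0947). Other falls were those of CMC123C, by 1.58, CMI185C, by 1.48, CMN237C (CLPP5), by 1.39, and CMR030C, a membrane-associated zinc metalloprotease, by 1.18.

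On return to 5% CO2, 54 members rose and 71 fell against LC 24 h, where 24.7% of all tested genes were called higher and 24.9% lower, 49.6% in all. In the proteasome 18 rose and 5 fell, with a median log2 change of 0.24 beside 0.00 for all tested genes. The 5 falls became 2 or 3 when single LC 24 h libraries or recovery replicate 2 or 3 were left out. In the 20S core 9 rose. In the ubiquitin group 16 rose and 37 fell, with a median of -0.12, and the 16 rises became 9 without LC 24 h replicate 2. This comparison shares the LC 24 h libraries with that of LC 24 h against HC 0 h, so a gene high in those libraries appears in both.

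Against HC 0 h, 16 members were called higher and 14 lower in recovery, where 7.24% of all tested genes were called higher and 6.82% lower, 14.1% in all. The called share of the members was 12.6%. Without replicate 1 of all groups, 53 members were higher and 58 lower, while 48.2% of all tested genes were called in that fit. With 1 library of HC 0 h or recovery left out at a time, the counts ranged from 7 to 23 higher and 5 to 22 lower. The higher count was 10, 10 and 9 without HC 0 h replicates 1, 2 and 3, and 7 and 9 without recovery replicates 2 and 3. The lower count was 5, 6 and 6 without HC 0 h replicates 1, 2 and 3, and 22, 5 and 6 without recovery replicates 1, 2 and 3. The called share of all tested genes moved too. It was 6.23%, 7.54% and 7.34% without HC 0 h replicates 1, 2 and 3. Without recovery replicates 1, 2 and 3 it was 18.7%, 3.88% and 6.18%. Libraries outside this comparison mattered as well. The share rose to 24.6% without LC 3 h replicate 1, and was 11.8% to 15.6% without any other LC 3 h or LC 24 h library. Members were not counted in those fits.

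The called shares of the ubiquitin and proteasome groups in recovery against HC 0 h, 10.2% and 10.8%, were below the 14.1% of all tested genes. The directions of these few calls were uneven, where all tested genes had 7.24% higher and 6.82% lower. In the ubiquitin group 10 members were higher and 1 lower, and the E2 genes CMK253C (UBC1), CMG136C (UBC2), CMR010C (UBC36) and CMS503C (UBC7) were among those higher, at log2 changes of 0.61, 0.53, 0.38 and 0.40. Of these 4 calls only that of UBC1 held in every alternative tried. The 10 became 6 without HC 0 h replicate 3 or recovery replicate 3, 5 without recovery replicate 2 and 16 without recovery replicate 1, and the 1 became 0 without any 1 of the HC 0 h libraries or recovery replicate 2 or 3. In the proteasome 0 were higher, with 1 at an unadjusted p under 0.05 and 1 in DESeq2, and 4 were lower. The 4 were CMO197C (PAG1), CME128C (PAF2), CMG093C (RPN5A) and CMQ283C, at log2 changes from -0.32 to -0.43, and they became 0 without any 1 of the HC 0 h libraries or recovery replicate 2 or 3, and 10 without recovery replicate 1.

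In the authors' deposited table the q-value was under 0.05 for 20 members at LC 3 h, of which 18 were higher, for 54 at LC 24 h, of which 29 were higher, and for 7 in recovery, of which 4 were higher. The share of all genes under that cutoff was not counted. Whether these counts or their directions differ from those of all genes was therefore not tested.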

How the data were processed

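The authors deposited expected counts, TPM values, log2 fold changes and q-values per gene in 1 table of 4970 genes, per the file headers. The submitters' processing notes name CASAVA 1.8, RSEM, Bowtie2 and edgeR without their roles. Neither the genome build nor the test behind the q-values is given in the labels or headers, and coordinates are therefore left out. Deposited TPM values were used only for levels between genes and for second sums of the ubiquitin, proteasome and protease groups. The deposited log2 values were used only for the direction of the counted q-values. The authors' q-values, deposited without a stated test, were only counted.

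The deposited expected counts (94.0% of values whole) were rounded and tested with edgeR 4.0.16 in R 4.3.3: filterByExpr (105 genes removed), TMM scaling, robust quasi-likelihood fit of 4 groups over all 12 libraries, and Benjamini-Hochberg adjustment over 4865 genes in each of 5 comparisons. The script was tested on simulated data. DESeq2 1.42.0, other scalings and filters, a replicate block, fits of 2 groups and leaving out each library were alternatives. Member calls with single libraries left out were compared only for libraries of the 2 groups in a comparison. Leaving out replicate 1 of all groups was added after seeing the data.

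Deviations of same-numbered libraries from their group means correlated at 0.456, 0.243 and 0.389 between LC 3 h and HC 0 h. Between recovery and LC 24 h they correlated at 0.535, 0.212 and 0.482. Most unlike-numbered pairs were negative, but HC 0 h replicate 3 with LC 3 h replicate 2 reached 0.435. LC 24 h replicate 2 with recovery replicate 3 reached 0.456. Pairing by replicate number is thus not established. In these 2 comparisons the block moved no count of calls by over 1.5 times. No 2 libraries of a group agreed within sampling noise.

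Members and lists were chosen with earlier results of these data known. A rule picked genes to name among called members with an average log2 CPM of at least 4 and groups without overlap. It took the 8 largest rises and falls at LC 3 h and LC 24 h and the 4 largest in other comparisons. Up to 3 rises and 3 falls per group were taken as well. The 5 highest in TPM and the 3 largest proteasome changes per part were added without those conditions. Of the genes so picked, CMO083C, CMO086C, CMF182C, CMF024C, CMM200C and CML133C are not described above. Related members were then named after their values were seen. All 239 member identifiers occur in RefSeq's gene list for assembly ASM9120v1.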

Additional observations from a re-analysis of the deposited data

How the results depend on the processing

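No direction of a called member reversed under any alternative, but upper-quartile scaling moved the balance of higher and lower calls at LC 3 h and between the low-CO2 times, as given beside those counts. At LC 24 h against HC 0 h, the counts of the whole category and of the 4 larger groups stayed within 1.5 times of those reported, while several small sub-groups moved. In the 19S cap 1 gene rather than 2 was higher under relative-log-expression scaling and 1 to 2 with single libraries left out, and RING-class falls were 2 to 3 with single libraries left out. Of the 4 deubiquitinase rises, 1 was left under relative-log-expression scaling or a filter of 10 CPM in 3 libraries, 2 under upper-quartile scaling or DESeq2 and 0 to 2 with single libraries left out, and the 2 falls became 1 with any single library left out. The 3 E1 rises became 0 to 2 with single libraries left out. Without replicate 1 of all groups 4 E2 genes and 2 AAA-type genes were lower. The 2 aspartate protease falls became 1 under that filter or a fit of the 2 groups and 1 to 2 with single libraries left out, and the replicate block gave 2 lower AAA-type and 1 lower cysteine protease genes. Against HC 0 h at LC 3 h, fitting only the 2 groups gave 21 higher ubiquitin and 3 higher proteasome genes, and upper-quartile scaling gave 18 lower ubiquitin, 7 lower protease and 10 lower top-level genes. Without replicate 1 of all groups there were 57 lower members, 21 lower ubiquitin and 13 lower top-level genes at LC 3 h. That fit called 61.9% of all tested genes at LC 3 h. Leaving out single libraries gave 8 to 17 lower ubiquitin, 6 to 14 lower proteasome, 2 to 4 lower protease and 3 to 6 lower top-level genes.

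In recovery against HC 0 h the replicate block gave 33 higher and 32 lower members, 20 and 4 in the ubiquitin group, 1 and 12 in the proteasome, 7 and 7 among proteases and 4 and 8 among top-level genes. That fit called 25.7% of all tested genes in recovery against HC 0 h. Not every same-numbered pair of libraries deviated together there (correlations of 0.28, -0.076 and 0.334), or between HC 0 h and LC 24 h (0.059, 0.114 and 0.186) or LC 3 h and LC 24 h (0.311, 0.074 and 0.424); besides these and the LC 24 h counts above the block moved no count by over 1.5 times, and it ended 2 of 557 member calls. Fits of 2 groups gave 22 lower members, 2 lower ubiquitin and 9 lower proteasome genes, and DESeq2 gave 27, 3 and 10, with 1 higher proteasome and 8 lower top-level genes. The called share of all tested genes was 14.5% in the fit of 2 groups and 22.3% in DESeq2. Without replicate 1 of all groups the counts were 53 higher and 58 lower members, 33 and 10 ubiquitin, 2 and 21 proteasome, 10 and 10 protease and 6 and 16 top-level genes. Leaving out single libraries of HC 0 h or recovery gave 7 to 23 and 5 to 22 members. It gave 5 to 16 and 0 to 1 ubiquitin, and 0 to 1 and 0 to 10 proteasome genes. It also gave 1 to 4 higher protease, 1 to 2 higher and 2 to 7 lower top-level genes.

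In recovery against LC 24 h, 11 proteases were higher and 20 lower without replicate 1 of all groups, where 66.3% of all tested genes were called. Leaving out single libraries gave 9 to 15 higher ubiquitin and 2 to 4 lower proteasome genes. From LC 3 h to LC 24 h, fits of 2 groups gave 49 lower members, with 10 lower ubiquitin, 2 higher proteasome, 11 lower protease and 13 lower top-level genes; upper-quartile scaling gave 12 lower ubiquitin genes and a filter of 10 CPM in 3 libraries 1 higher proteasome gene. Leaving out single libraries gave 11 to 16 lower ubiquitin, 0 to 3 higher proteasome and 5 to 8 higher top-level genes. The cause of these differences was not tested.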

Other observations

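Genes outside the category with related words in their descriptions were counted as well. Of all tested genes 41.4% were called at LC 3 h and 63.0% at LC 24 h. The called shares at these times were 55.1% and 79.7% for chaperones and 38.5% and 76.9% for ubiquitin or proteasome words. They were 38.9% and 72.2% for protease or peptidase words and 42.9% and 57.1% for the proton pump. Of 69 genes annotated as chaperones or heat shock proteins, 12 rose and 26 fell at LC 3 h and 22 rose and 33 fell at LC 24 h. Of 13 further genes with ubiquitin or proteasome words, 4 rose and 1 fell at LC 3 h and 9 rose and 1 fell at LC 24 h. Of 18 further genes with protease or peptidase words, 6 rose and 1 fell at LC 3 h and 9 rose and 4 fell at LC 24 h. The single further gene with words for ubiquitin-like conjugation rose at both times, by 0.44 and 0.82. Of 7 genes of the vacuolar proton pump, 1 rose and 2 fell at LC 3 h and 2 rose and 2 fell at LC 24 h.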
